A study of Rattus norvegicus with 10 samples.

Results

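The enzymes of glycolysis and glycogen described here are 10 genes of muscle sugar metabolism, Pygm, Gys1, Pfkm, Aldoa, Gapdh, Pgam2, Eno3, Ldha, Ldhb and Gpd1. They were taken by symbol from the expression table, in which all 10 of the 10 symbols were present with 11 of its 17221 transcripts, because Aldoa has 2. The ratio of Ldhb to Ldha in each library was taken with them.

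The values are RNA-seq levels in subcutaneous muscle of female Wistar rats, whose ages the labels do not give. All 10 animals, controls included, had collagen-induced arthritis, which stands for rheumatoid arthritis (RA) and was raised by immunising with bovine type II collagen in Freund's adjuvant. They fall into 5 groups of 2 animals: RA_0, sampled before any therapy, AP_1h and AP_34d, sampled 1 h and 34 days into acupuncture, and PLA_1h and PLA_34d, sampled at the same times under placebo. In acupuncture a needle was inserted and twirled at points of the lower back and of the lower leg on both sides, whereas placebo was sterile saline injected into the peritoneum and so not at those points. No animal without arthritis is among the 10. The tissue was cut from around the stimulated points when an animal was killed, so that the groups hold different animals. The labels call the 2 libraries of a group replicates, and these libraries were taken here as 2 animals. Each title reads muscle tissue 1, and the labels name neither the point nor the muscle.

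Skeletal muscle stores glucose as glycogen and can break it down within the cell to fuel contraction. Glycogen phosphorylase releases the sugar, the chain of glycolytic enzymes turns it into pyruvate with a gain of ATP, and lactate dehydrogenase exchanges pyruvate with lactate. Lactate dehydrogenase is a tetramer of a muscle subunit, encoded by Ldha, and a heart subunit, encoded by Ldhb. Ldha dominates in fast glycolytic fibres, and Ldhb is known for slow oxidative fibres and heart, where lactate is taken up and burnt.

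The results turn on Ldhb and Ldha, and their promoters are shown to let the pair be compared as sequence. RefSeq promoters of build GRCr8 were found for 9 of the 10 genes. Each sequence below is the 250 bases before the annotated start, read 5' to 3' on the gene's own strand, that of Ldha at chr1:106507842-106508091 on the plus strand and that of Ldhb at chr4:177177409-177177658 on the minus strand. Capitals mark matches, on either strand, to the E-box CACGTG, the hypoxia response core ACGTG, the GC box GGGCGG and the TATA box TATAAA, where an E-box always holds the core as well.
Ldha: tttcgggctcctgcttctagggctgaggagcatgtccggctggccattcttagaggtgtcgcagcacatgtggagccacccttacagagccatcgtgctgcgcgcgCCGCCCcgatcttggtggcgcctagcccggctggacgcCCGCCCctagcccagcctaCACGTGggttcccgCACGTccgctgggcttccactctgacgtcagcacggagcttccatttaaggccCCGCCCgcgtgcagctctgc
Ldhb: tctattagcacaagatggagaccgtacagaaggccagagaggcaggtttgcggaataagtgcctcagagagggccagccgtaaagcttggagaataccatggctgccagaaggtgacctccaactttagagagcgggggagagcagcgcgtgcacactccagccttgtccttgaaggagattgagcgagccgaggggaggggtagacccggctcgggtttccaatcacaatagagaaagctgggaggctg
The Ldha stretch held 1 E-box, 3 matches to the hypoxia response core, 1 of them on each strand within the E-box, and 3 GC boxes. In the Ldhb stretch none of these letters was found, and neither stretch held TATAAA. Of 33469 rat promoters of this length, 5.59% held the E-box, 16.6% the core, 30.5% the GC box and 12.9% TATAAA. The core was also found once before Pygm, Pfkm, Gapdh and 1 of the 3 annotated starts of Aldoa. These are matches of letters, with no measurement of binding in these data.

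The libraries held 5371687 to 8899521 counted reads, and 1 CPM (reads scaled to depth by the authors with TMM factors, edgeR's trimmed means) stood for 4.19 to 10.1 reads. The members took 2.58% to 3.91% of the reads of a library. The tissue label fits the markers, since the muscle structure transcripts found (Acta1, Ckm, Des, Myot and Cav3) summed to 63831 to 203695 CPM, whereas the 4 keratinocyte transcripts found summed to at most 6.97 CPM. PLA_34d replicate 1 stands apart in its leukocyte markers, with a sum of 886 CPM against 120.1 to 550 CPM in the other libraries, the 550 CPM in AP_1h replicate 1. In PLA_34d replicate 1 Cd79b, a B cell marker, stood at 72.0 CPM against at most 1.82 CPM elsewhere, and Cd3e, a T cell marker, at 36.3 CPM against at most 4.22 CPM. Ptprc, the common leukocyte antigen, was listed at 0 for all 5 of its overlapping transcripts.

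Pygm (NM_012638, rn4 chromosome 1, 209166701 to 209181588) encodes muscle glycogen phosphorylase, which cuts glucose units from glycogen. Its levels were 14013 and 9089 CPM in RA_0, 10126 and 10637 in AP_1h, 7623 and 15350 in PLA_1h, 15306 and 12234 in AP_34d, and 6138 and 13093 in PLA_34d. The highest and the lowest library were thus placebo libraries, 2.50-fold apart, and the groups overlapped in each of the 6 pairs compared. Gys1 (NM_001109615, chromosome 1, 95907458 to 95928150) encodes muscle glycogen synthase, which builds the store that Pygm cuts. It stood at 863 and 477 CPM in RA_0, 195 and 352 in AP_1h, 367 and 697 in PLA_1h, 815 and 346 in AP_34d, and 452 and 650 in PLA_34d. Both AP_1h libraries lay below both libraries of RA_0, of PLA_1h and of PLA_34d, and the groups overlapped in the other pairs compared.

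Pfkm (NM_031715, chromosome 7, 136822203 to 136846040), the muscle phosphofructokinase, carries out the committed step of glycolysis. It stood at 4960 and 2483 CPM in RA_0, 2406 and 3249 in AP_1h, 2242 and 3617 in PLA_1h, 4103 and 2138 in AP_34d, and 2058 and 3461 in PLA_34d. No pair of groups was apart, and 1 library of each group was near the lowest. Aldoa, the aldolase that splits the sugar, has 2 transcripts in the table, NM_001177305 (chromosome 1, 185970658 to 185975486) and NM_012495 (185970658 to 185974615), which overlap each other, so the reads they share were dropped when reads were counted and their low levels say little about the gene. NM_001177305 ran from 7.96 to 39.1 CPM and NM_012495 from 8.66 to 34.6 CPM, which is 71 to 172 and 58 to 165 reads a library. The second of them was lower in both AP_1h libraries (14.8 and 11.2 CPM) than in both RA_0 libraries (34.6 and 19.5 CPM).

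Gapdh (NM_017008, chromosome 4, 161282215 to 161286087) encodes the dehydrogenase that makes the NADH later used by lactate dehydrogenase. Its levels were 4749 and 1795 CPM in RA_0, 1709 and 2137 in AP_1h, 1289 and 3596 in PLA_1h, 4249 and 1755 in AP_34d, and 1258 and 3212 in PLA_34d. The 2 libraries of a group differed up to 2.79-fold, and the group means, which vary less than single libraries, at most 1.70-fold.

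Pgam2 (NM_017328, chromosome 14, 86466055 to 86468166) encodes the muscle phosphoglycerate mutase, and Eno3 (NM_012949, chromosome 10, 57536965 to 57542317) the muscle enolase, the enzymes next to each other in lower glycolysis. Pgam2 stood at 7489 and 3772 CPM in RA_0, 2485 and 5596 in AP_1h, 3021 and 5364 in PLA_1h, 4944 and 1596 in AP_34d, and 2451 and 6534 in PLA_34d. Eno3 stood at 10946 and 6673 CPM in RA_0, 4525 and 10704 in AP_1h, 5845 and 7832 in PLA_1h, 8173 and 4431 in AP_34d, and 4500 and 9092 in PLA_34d. The same library of each group was the higher for both enzymes, and no pair of groups was apart.

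Gpd1 (NM_022215, chromosome 7, 138458875 to 138466265) encodes the cytosolic glycerol phosphate dehydrogenase, which links glycolysis to lipid synthesis and to the NADH shuttle of mitochondria. It stood at 1751 and 1104 CPM in RA_0, 1047 and 1944 in AP_1h, 753 and 1384 in PLA_1h, 1140 and 859 in AP_34d, and 787 and 1771 in PLA_34d, with overlap in each of the 6 pairs.

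Ldha (NM_017025, chromosome 1, 97403077 to 97412547) behaved like these. It stood at 3405 and 1798 CPM in RA_0, 1606 and 4388 in AP_1h, 1884 and 2527 in PLA_1h, 2768 and 1222 in AP_34d, and 1532 and 2802 in PLA_34d. The AP_1h libraries held the highest level of all and a level below both RA_0 libraries, so that Ldha gave no order of the groups. Ldhb (NM_012595, chromosome 4, 180061567 to 180079473) did not follow the other members. It stood at 1099 and 512 CPM in RA_0, 70.8 and 61.3 in AP_1h, 305 and 308 in PLA_1h, 578 and 170 in AP_34d, and 513 and 261 in PLA_34d, from 438 to 4608 reads a library. Both AP_1h libraries were the lowest of the 10, both PLA_1h libraries lay between them and RA_0, and the 34 day groups spread over both sides of PLA_1h.

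**Figure D1:**
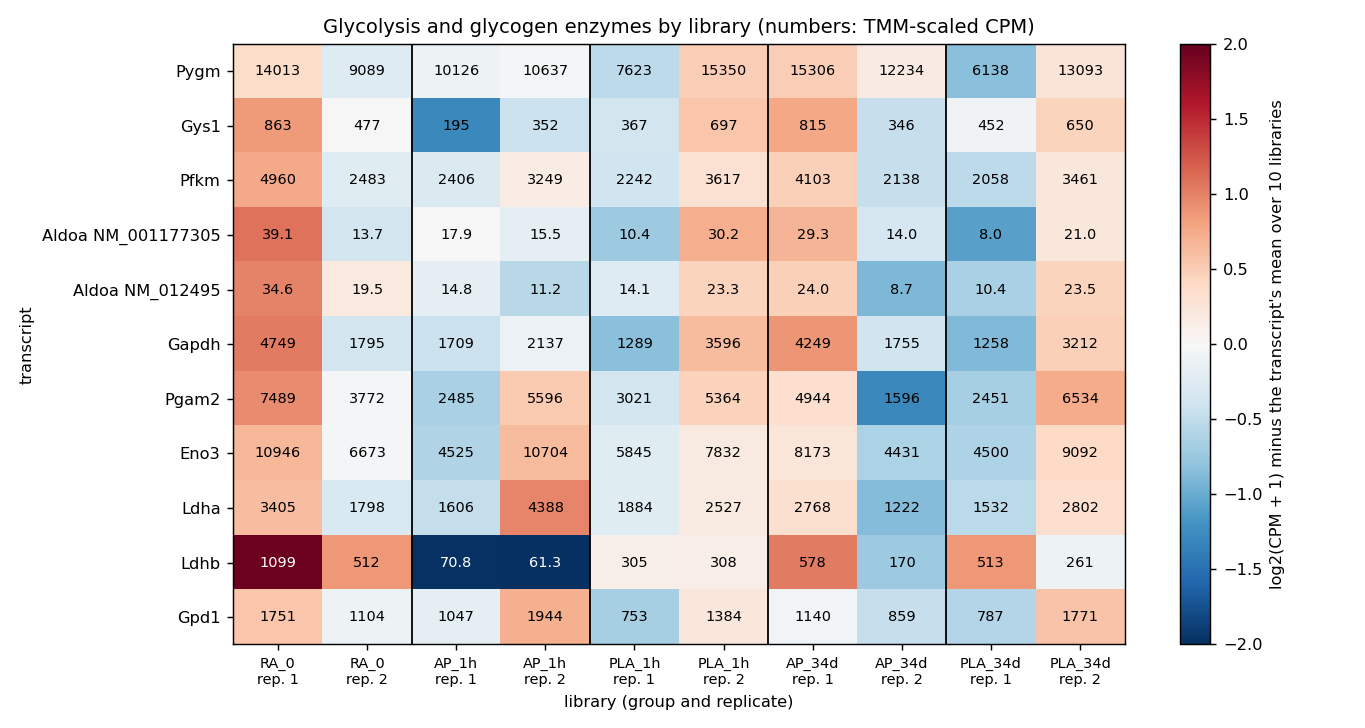
Level of each transcript (rows) in each library (columns, 2 a group), with the TMM-scaled CPM printed in the cell and the colour giving log2(CPM + 1) minus the transcript's own mean over the 10 libraries, with the darkest shades at 2 or beyond in size. Most rows change from library to library within a group, while Ldhb is lowest in both AP_1h libraries (70.8 and 61.3 CPM) and highest in RA_0 replicate 1 (1099 CPM).

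Apart from Ldhb, the members had a larger SD within groups than among the group means, as did most tested transcripts. Means of 2 libraries vary less than single libraries, so these SDs are not like measures. The SD within groups of log2(CPM + 1) was 0.52 to 0.88 for these 10 transcripts, and the SD of their 5 group means was 0.15 to 0.50. For Ldhb it was the other way round, with 0.73 within groups and 1.27 among the means. A larger spread of means than within groups was found for 1 of 11 member transcripts and for 22.0% of the 10259 tested, and 3.67% of the tested transcripts had a ratio of the spreads at least as large as the 1.75 of Ldhb.

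The transcripts other than Ldhb swung together from library to library. All 10 stood above their own mean in RA_0 replicate 1, PLA_1h replicate 2 and PLA_34d replicate 2, and 9 did in AP_34d replicate 1. None stood above it in PLA_1h replicate 1 or PLA_34d replicate 1, and 1 did in AP_1h replicate 1 and in AP_34d replicate 2. RA_0 replicate 2 had 2 above and AP_1h replicate 2 had 5. The muscle structure sum moved with them, at 203695, 178047, 156754 and 139738 CPM in the 4 libraries with 9 or 10 above and at 63831, 65589, 68723 and 85854 CPM in the 4 with 0 or 1 above. The TMM factors were 0.780 to 0.955 in the former and 1.06 to 1.31 in the latter. With reads scaled to the library total alone, the swing was smaller (SD over 10 libraries 0.23 against 0.44 for Pfkm, 0.49 against 0.70 for Gapdh), and with the muscle structure list as the scale that of Gapdh fell to 0.19, while that of Ldhb was 1.28 and 1.19 against 1.32. The part of muscle content and of scaling in the swing was not tested. In such bulk tissue fewer muscle fibres and less RNA per fibre cannot be told apart.

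The comparisons with RA_0 asked what had changed after therapy began, and they share the RA_0 libraries. In AP_1h against RA_0, Ldhb had a log2 difference of -3.49 ± 0.58 (SE, limma adjusted p 0.0934, unadjusted p 1.29e-04), 806 ± 415 against 66.0 ± 6.73 CPM (SD, n = 2), and Gys1 one of -1.29 ± 0.55 (limma adjusted p 0.531), 670 ± 273 against 273 ± 111 CPM. limma called 0 of the 11 member transcripts at an adjusted p under 0.05, where 0.0292% of all tested were called, and 2 had an unadjusted p under 0.05, as did 8.89% of all tested. No member was called by edgeR or limma-voom, whereas DESeq2, which called 1.69% of all tested, called Ldhb (adjusted p 4.51e-07). The rule the study used, an unadjusted p under 0.05 with at least a 2-fold difference and a mean of at least 1 CPM, was met by both genes, 2 of 11 lower and 0 higher, where it was met by 3.59% of all tested in the lower direction and 2.53% in the higher. The libraries did not overlap, all lower in AP_1h, for 3 of 11 transcripts (Ldhb, Gys1 and 1 of Aldoa), where 21.0% of all tested were lower without overlap.

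Over 26 other ways of processing, Ldhb was lower in AP_1h than in RA_0 in each, with log2 differences of -4.04 to -2.75 and adjusted p of 4.51e-07 to 0.564. It passed in 3 of them, DESeq2, a fit of the 4 compared libraries alone (1.05% of all tested called) and the fit without AP_34d replicate 1 (adjusted p 0.0495). Gys1 passed in none of them (-1.72 to -0.55, lowest adjusted p 0.309).

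In the other comparisons with RA_0, the log2 differences of Ldhb were -1.29 ± 0.58 for PLA_1h (SE, limma adjusted p 1.00), -1.26 ± 0.58 for AP_34d (0.967) and -1.03 ± 0.58 for PLA_34d (0.914). limma called 0 of 11 members in each, where 0% of all tested were called, and none had an unadjusted p under 0.05, beside 2.59%, 4.77% and 3.2% of all tested in that order. edgeR, limma-voom and DESeq2 called 0 members, where DESeq2 called 0.107%, 0.322% and 0.37% of all tested. No member met the study's rule. The lower direction was met by 0.673% of all tested for PLA_1h, 1.33% for AP_34d and 0.439% for PLA_34d. Only for PLA_1h did Ldhb fail to overlap RA_0, 1 of 11 members, where 13.6% of all tested were lower without overlap. Single libraries moved these values. The Ldhb difference of AP_34d was -2.14 without AP_34d replicate 1 and -0.38 without replicate 2, that of PLA_34d was -1.58 without replicate 2 of RA_0 and -0.48 without its replicate 1, and that of PLA_1h -1.84 and -0.74 without the same libraries. Without PLA_34d replicate 1, the library with the leukocyte markers, the difference of PLA_34d was -1.52.

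AP_1h against PLA_1h and AP_34d against PLA_34d set the 2 therapies against each other at matched times. At 1 h Ldhb stood at 66.0 ± 6.73 against 307 ± 2.03 CPM (SD, n = 2), a log2 difference of -2.20 ± 0.58 (SE, limma adjusted p 0.679), lower in both libraries. limma, limma-voom and edgeR called 0 of 11 members, with 1 at an unadjusted p under 0.05 by limma (4.04% of all tested) and 0% of all tested called by it. DESeq2 called Ldhb (adjusted p 0.0327, 0.409% of all tested called), as did a fit of the 4 libraries alone (0.0477, 0.117% called), and the range over 26 alternatives was 0.0327 to 1.00. The study's rule was met by Ldhb, 1 of 11 lower, against 1.65% of all tested, and Ldhb and Gys1 did not overlap, 2 of 11 lower against 16.7% of all tested. At 34 days Ldhb gave -0.23 ± 0.58 (limma adjusted p 0.974). limma called 0 of 11 members there (0% of all tested), none at an unadjusted p under 0.05 (5.47% of all tested), and the other tools called 0 (DESeq2 0.877% of all tested), with the libraries overlapping for each.

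Averaged over both times, the log2 difference of Ldhb between acupuncture and placebo was -1.21 ± 0.41 (SE, limma adjusted p 0.727), which met the study's rule (0.868% of all tested lower). The interaction, the difference at 34 days minus that at 1 h, was 1.98 ± 0.83 for Ldhb (limma adjusted p 1.00, unadjusted p 0.0375) and met it too (1.78% of all tested higher). limma called 0 of 11 members in both, with 1 at an unadjusted p under 0.05 each (5.72% and 4.05% of all tested) and 0% of all tested called. edgeR, limma-voom and DESeq2 called 0, where DESeq2 called 0.624% and 0.312% of all tested. Without AP_34d replicate 2 or without PLA_34d replicate 1 the average over both times no longer met the rule (-0.77 and -0.97). A difference between the times was not shown.

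**Figure D2:**
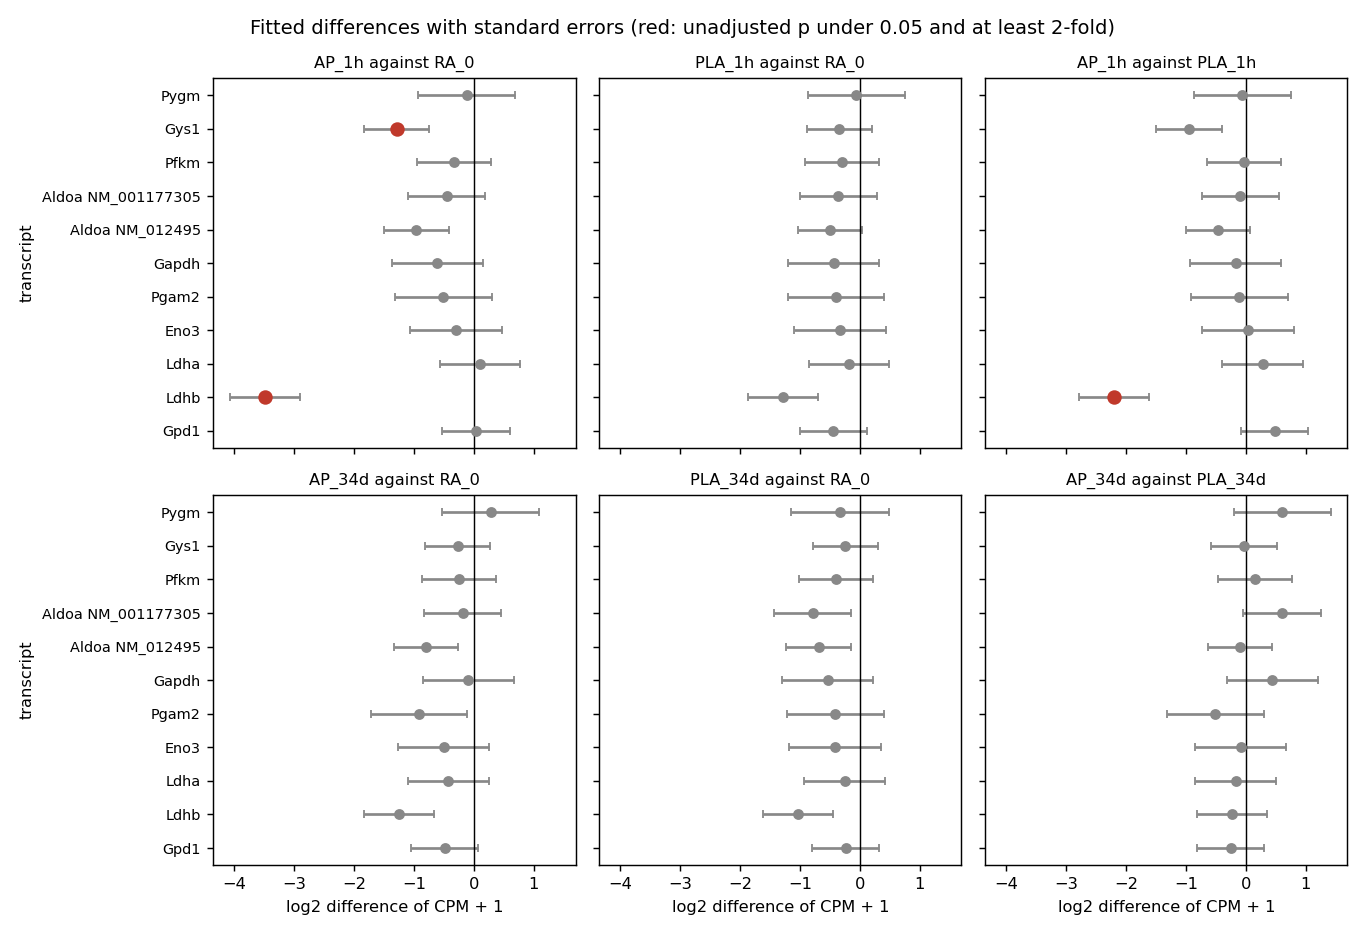
Log2 difference of CPM + 1 for each transcript in the 6 pairs of groups, as fitted by limma, with bars of 1 SE, and in red those with an unadjusted p under 0.05 and at least a 2-fold difference. Ldhb lies at -3.49 for AP_1h against RA_0 and at -2.20 for AP_1h against PLA_1h, while the bars of most other members reach 0.

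The members not named with a difference gave 80 values over the 8 contrasts, between -0.96 and 0.92 on the log2 scale, with limma adjusted p of at least 0.663. The median over the 11 transcripts was -0.45 for AP_1h, -0.43 for AP_34d, -0.36 for PLA_1h and -0.41 for PLA_34d against RA_0, beside medians of all tested transcripts of 0.00, -0.01, -0.01 and -0.01. These comparisons share the RA_0 libraries, of which replicate 1 held 8 of the 11 highest levels. The sign rests on RA_0 replicate 1, without which the members' medians were 0.09, 0.03, 0.09 and 0.09, or 0.09, 0.03, 0.08 and 0.09 relative to all transcripts, while without RA_0 replicate 2 they were -1.01, -0.86, -0.80 and -0.89. The sign of the raw medians, but not of those relative to all transcripts, also depends on the scale. With the muscle structure list as scale the members' medians were 0.26, -0.12, 0.05 and 0.18, where the medians of all tested transcripts had shifted to 0.68, 0.26, 0.39 and 0.52. Relative to all transcripts the members' medians were then -0.41, -0.38, -0.34 and -0.34, still negative.

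The ratio of Ldhb to Ldha sets the subunits against each other within a library, and no scaling factor enters it. It was 0.323 and 0.285 in RA_0, 0.0441 and 0.0140 in AP_1h, 0.162 and 0.122 in PLA_1h, 0.209 and 0.139 in AP_34d, and 0.335 and 0.0933 in PLA_34d. Both AP_1h libraries were the lowest, both PLA_1h and both AP_34d libraries lay below both RA_0 libraries, and PLA_34d held the highest value of the 10 and the third lowest. As a share of the reads of both genes, with 95% Wilson intervals that cover counting error only, Ldhb was 24.4% (23.8% to 25.0%) and 22.2% (21.5% to 22.8%) in RA_0, and 4.22% (3.92% to 4.55%) and 1.38% (1.26% to 1.51%) in AP_1h. It was 13.9% (13.5% to 14.4%) and 10.9% (10.4% to 11.4%) in PLA_1h, 17.3% (16.7% to 17.8%) and 12.2% (11.5% to 12.9%) in AP_34d, and 25.1% (24.5% to 25.7%) and 8.53% (8.17% to 8.91%) in PLA_34d. The intervals of the 2 libraries of a group overlapped in no group, so the libraries of a group differed by more than counting error.

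On the log2 scale the ratio of AP_1h differed from that of RA_0 by -3.61, which is 12.2-fold lower, and from that of PLA_1h by -2.50, which is 5.66-fold lower. The difference from RA_0 was -1.11 for PLA_1h, -0.83 for AP_34d and -0.78 for PLA_34d, and that of AP_34d from PLA_34d was -0.05. The pooled SD within groups was 0.82, so that the last 3 differed by about that spread or less. An exact permutation test of the log2 ratio over the 5 groups (945 distinct assignments, one-sided by the F statistic) gave p 0.0593. A pair of groups with 2 libraries each cannot give a p below 0.33, and the pairs are therefore given as values. Without PLA_34d replicate 1 the test gave p 0.0201 and without replicate 2 p 0.0169 (exact permutation test), and without the other libraries it gave 0.0593 to 0.184. The difference of PLA_34d from RA_0 was -1.70 without its replicate 1 and 0.14 without its replicate 2, and that of AP_34d from PLA_34d was 0.87 and -0.98, so these have no settled direction.

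**Figure D3:**
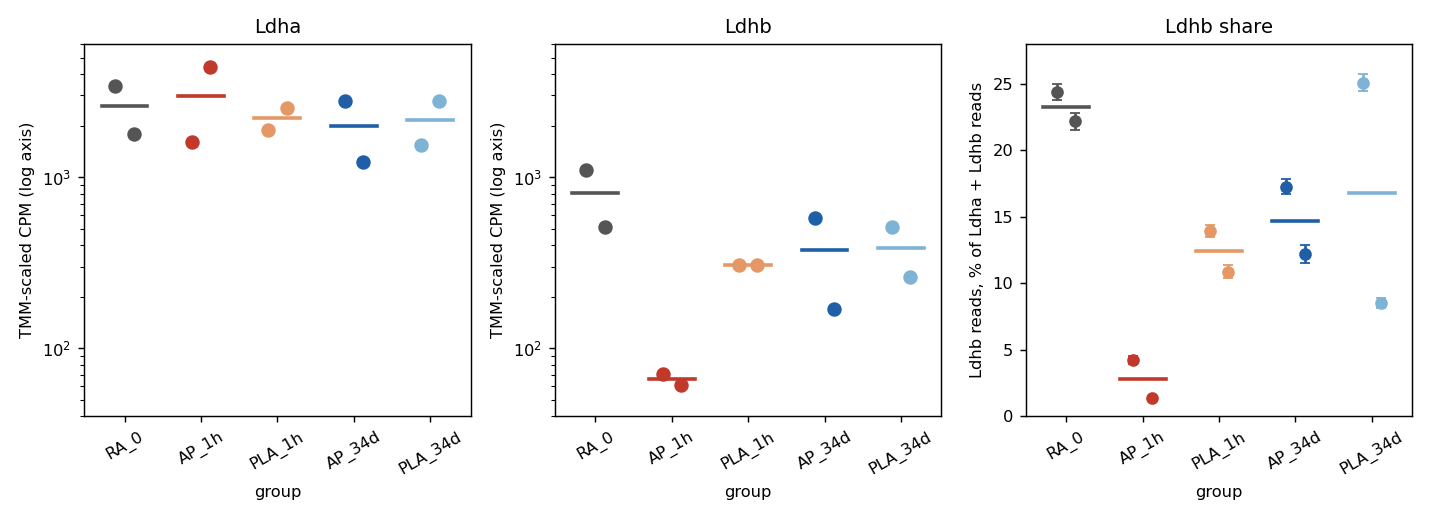
Ldha and Ldhb as TMM-scaled CPM on log axes and the Ldhb share of the reads of both genes in percent, each point 1 library, horizontal bars the group means, and error bars on the share 95% Wilson intervals. Ldha overlaps between all groups, Ldhb and its share are lowest in both AP_1h libraries (4.22% and 1.38%), and the PLA_34d libraries lie far apart (25.1% and 8.53%).

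The levels of Ldhb moved with transcripts of slow fibres, the oxidative muscle cells in which Ldhb is known to be the main subunit. Myh7, the slow myosin heavy chain, stood at 7398 and 4565 CPM in RA_0, 361 and 372 in AP_1h, 2235 and 579 in PLA_1h, 4064 and 813 in AP_34d, and 11934 and 499 in PLA_34d. It too was lowest in both AP_1h libraries and far apart in the PLA_34d pair. The list of 12 slow-fibre genes, all of them in the table, summed to 26598 to 49674 CPM in RA_0, 8260 to 9117 in AP_1h, 20562 to 21633 in PLA_1h, 11500 to 31604 in AP_34d and 16062 to 33743 in PLA_34d, of which Mb, myoglobin, made up 31.3% to 89.3%. Only 2 of the 3 Atp2a2 transcripts, which overlap, were listed at 0. In AP_1h against RA_0, 13 of 13 tested transcripts of the list were below 0, with a median log2 difference of -3.50 beside 0.00 for all tested. The study's rule was met by 10, all lower, where 3.59% of all tested met it in that direction. limma called 0 of them, with 10 at an unadjusted p under 0.05 (8.89% of all tested) and a lowest adjusted p of 0.241. None passed in edgeR or limma-voom, and DESeq2, which called 1.69% of all tested, called Myoz2, Myl3 and Mb. The list was also lower than RA_0 in the other groups, with 13 of 13 below 0 and a median of -2.33 in PLA_1h. There 3 met the rule as lower, beside 0.673% of all tested. In AP_34d 13 of 13 were below 0 with a median of -1.66, and in PLA_34d 12 of 13 with -1.40, and none met the rule in either. In AP_1h against PLA_1h the median was -1.20 and 0 met the rule. Set against the slow-fibre sum, Ldhb stood at 22.1 and 19.3 CPM per 1000 CPM in RA_0, 8.57 and 6.72 in AP_1h, 14.1 and 14.98 in PLA_1h, 18.3 and 14.7 in AP_34d, and 15.2 and 16.3 in PLA_34d. Without Mb in the sum it stood at 47.2 and 43.7 in RA_0, 59.3 and 43.8 in AP_1h, 59.8 and 139.8 in PLA_1h, 44.1 and 76.1 in AP_34d, and 22.1 and 133.4 in PLA_34d. AP_1h then overlapped RA_0, so that its lower share than in RA_0 was seen only with Mb in the sum. Both AP_1h libraries still lay below both PLA_1h libraries, 1 of them barely (59.3 against 59.8). Some markers of tendon moved in the same comparisons. Of 5 transcripts of tendon and fibroblasts found, Kera, Tnmd and Fmod met the study's rule as lower in AP_1h than in RA_0 and than in PLA_1h. Col1a1 and Dcn went the other way, higher in AP_1h in both comparisons, and did not meet the rule. In the lower direction 3.59% and 1.65% of all tested met it. Kera, a proteoglycan of tendon, stood at 10.97 and 50.6 CPM in RA_0, 0.649 and 0.280 in AP_1h, 13.5 and 23.9 in PLA_1h, 25.2 and 18.8 in AP_34d, and 30.1 and 6.82 in PLA_34d. limma called 0 of the 5 in both comparisons, with 3 at an unadjusted p under 0.05 (8.89% and 4.04% of all tested) and lowest adjusted p of 0.0988 and 0.445. None passed in edgeR or limma-voom. DESeq2 called all 3 against RA_0 (1.69% of all tested called) and Kera and Fmod against PLA_1h (0.409%). The summed level of the list, at 795 to 1351 CPM in AP_1h, lay within that of RA_0 (616 to 2032 CPM) and overlapped PLA_1h (783 to 950 CPM). Of 6 adipocyte transcripts tested, 0 met the rule in AP_1h against RA_0 and Adipoq alone did, as lower, against PLA_1h (1.65% of all tested). The 4 leukocyte transcripts tested were all above RA_0 in each of the other groups. Their median log2 differences were 1.07 in AP_1h, 0.48 in PLA_1h, 0.52 in AP_34d and 0.88 in PLA_34d, and limma called 0. Lyz2 alone met the rule, as higher, in AP_1h against RA_0 (2.53% of all tested). The part of fibre makeup and of other tissue in the Ldhb result was not tested. The gene lists of the study itself, which hold Ldhb, came from the same libraries, so neither Ldhb nor the slow-fibre list is independent evidence of a direction.

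**Figure D4:**
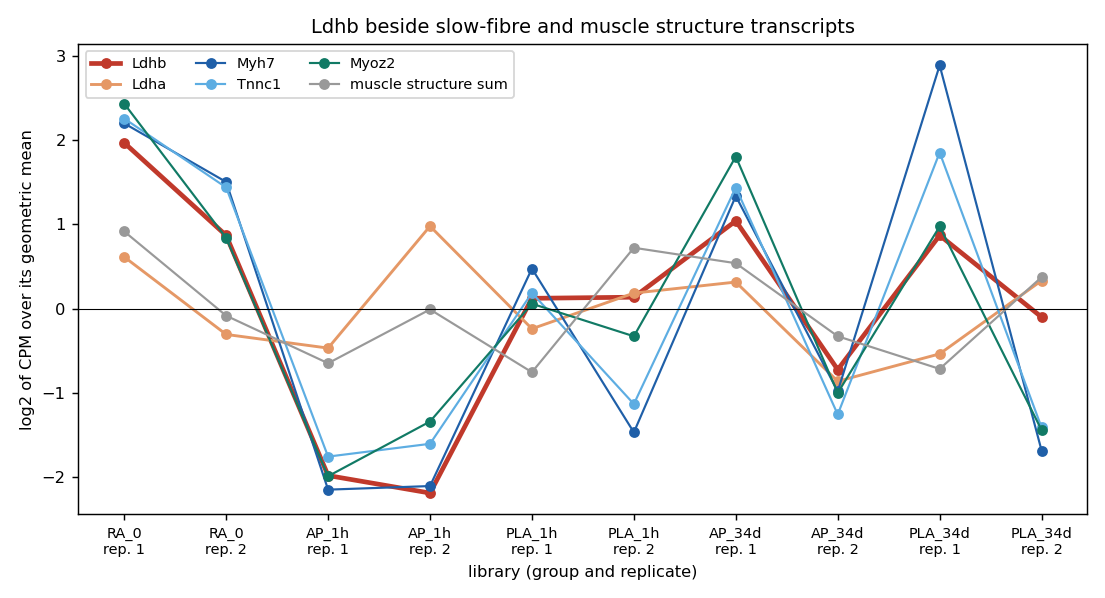
Log2 of the CPM of Ldhb, Ldha, the slow-fibre transcripts Myh7, Tnnc1 and Myoz2 and the muscle structure sum, each over its own geometric mean, in the 10 libraries, where lines only join the points of a transcript. Ldhb and the slow-fibre transcripts are low in both AP_1h libraries, whereas Ldha is at its highest in AP_1h replicate 2 (4388 CPM).

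The 5 transcripts of other symbols whose centred log2(CPM + 1) values came nearest to those of Ldhb over the 10 libraries, by root mean square difference among 10258, were Actr3b (0.56), Atp1b1 (0.56), Vtcn1 (0.59), Fhl4 (0.60) and Myoz2 (0.60). The deviations of Ldhb itself had a root mean square of 1.25. Atp1b1, a subunit of the sodium pump, stood at 332 and 294 CPM in RA_0 and at 58.1 and 70.0 in AP_1h, and Myoz2, a Z-disc protein of slow fibres, at 1119 and 370 in RA_0 and 51.9 and 81.4 in AP_1h. The tested slow-fibre transcripts ran from Myoz2 at rank 5 to 1 of Tpm3 at rank 1485 (1.13), with Myh7 at rank 452 (1.00). Among the members Gys1 came nearest, at rank 115 (0.85), and Ldha was at rank 6230 (1.35). The points share their libraries and scaling, and the ranks are a description.

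The study used GAPDH as the reference of its quantitative PCR, which was run on blood mononuclear cells and cultured synovial cells, not on muscle. The spread of Gapdh in this muscle, which says nothing of those cells, was set beside 11 reference genes in common use. Its SD over the 10 libraries was 0.70 on the log2(CPM + 1) scale, with 3.77-fold between the highest and the lowest library, and ranked 11 of 12 from the steadiest. Tbp had 0.13, Rpl13a 0.34 and Gusb 0.36, and only Tfrc with 0.93 spread more widely. Pgk1, a neighbour of Gapdh in glycolysis, had 0.46. Per CPM of the muscle structure sum Gapdh differed by only 1.54-fold over the 10 libraries, the least of the 11 member transcripts, and Ldhb by 13.7-fold, the most. The spread depends on the scale, since with reads scaled to the library total that of Gapdh was 0.49. The reference genes were not computed on that scale, so the rank holds for the TMM-scaled values only.

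**Figure D5:**
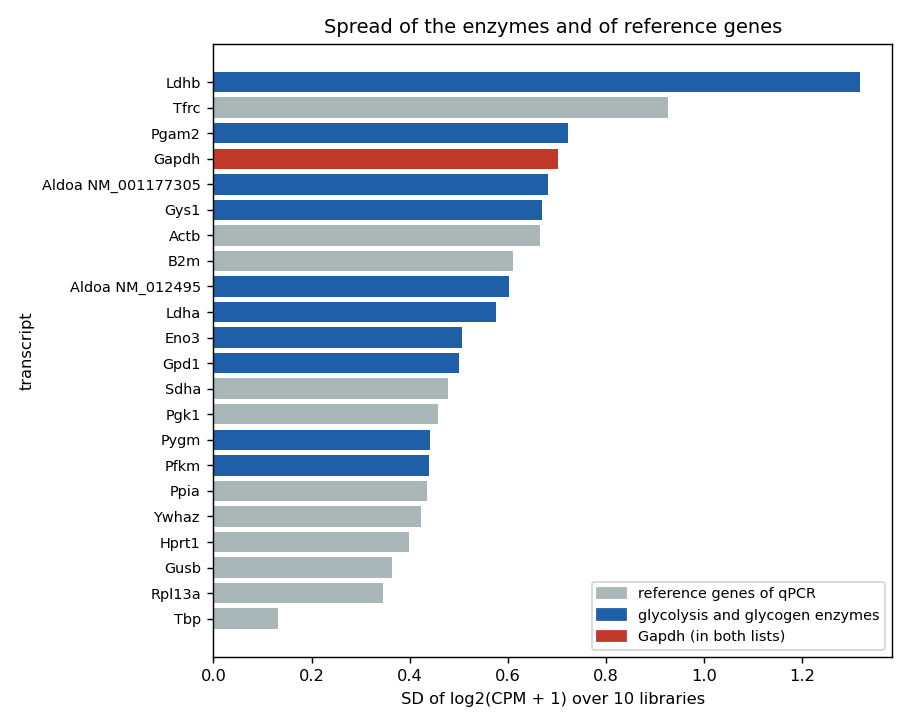
Bars give the SD of log2(CPM + 1) over the 10 libraries for the members (blue), reference genes (grey) and Gapdh, which is in both lists (red). Gapdh at 0.70 stands near the top, Tbp at 0.13 at the bottom and Ldhb at 1.32 at the top.

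Beyond the members, 53 of 55 further symbols of the pathway were in the table with 56 transcripts, of which 47 were tested, covering sugar uptake, other glycolytic enzymes, glycogen handling, the fate of pyruvate and lactate, and the glycerol phosphate shuttle. limma called 0 of the 47 in each of the 8 contrasts, with 1 to 6 at an unadjusted p under 0.05, beside 2.59% to 8.89% of all tested. None passed in edgeR or limma-voom. DESeq2 called Nhlrc1 in AP_1h against RA_0 (adjusted p 0.0205, 1.69% of all tested called). It called Pdk4 in AP_34d against RA_0 (0.00764, 0.322%), AP_34d against PLA_34d (0.00870, 0.877%) and acupuncture against placebo over both times (0.0284, 0.624%). Pdk4, the kinase that holds pyruvate back from mitochondria, stood at 119 and 319 CPM in RA_0, 561 and 979 in AP_1h, 526 and 443 in PLA_1h, 1946 and 1094 in AP_34d, and 92.4 and 363 in PLA_34d. Both AP_34d libraries were the highest of the 10, and the log2 difference was 2.90 ± 0.67 from RA_0 (SE, limma adjusted p 0.722) and 2.98 ± 0.67 from PLA_34d (0.756). It met the study's rule in both, the only pathway gene to do so in the higher direction there, where 1.49% and 1.38% of all tested did, and again over both times together with Pfkfb3 (0.877%).

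In AP_1h against RA_0 the rule was met by 2 pathway genes in the higher direction, Pdk4 and Ppp1r3c, and by 4 in the lower, of 47 tested, where 2.53% and 3.59% of all tested met it. Ppp1r3c, which targets a phosphatase to glycogen, stood at 428 and 327 CPM in RA_0 and 1041 and 1156 in AP_1h, a log2 difference of 1.55 ± 0.59 (SE, limma adjusted p 0.473), and in PLA_1h at 1092 and 562 CPM, a log2 difference from RA_0 of 1.06 that did not meet the rule. Slc16a1, a lactate and pyruvate carrier, stood at 147 and 126 CPM in RA_0, 60.5 and 72.5 in AP_1h and 109 and 105 in PLA_1h, a log2 difference from RA_0 of -1.03 ± 0.30 (limma adjusted p 0.312). The libraries of AP_1h lay below both of those groups, where 21.0% of all tested were lower without overlap against RA_0 and 16.7% against PLA_1h. Nhlrc1, the ubiquitin ligase malin, differed by -1.51 ± 0.34 (limma adjusted p 0.233), Pdk1 by -1.07 ± 0.40 (0.465) and Slc16a7, at no more than 4.06 CPM in any library, by -1.22 ± 0.48 (0.508). Slc16a7 met the rule as lower than RA_0 in the other 3 groups too, with -1.71 in PLA_1h, -1.39 in AP_34d and -1.14 in PLA_34d (limma adjusted p 1.00, 0.967 and 0.914). It passed the filter only through its RA_0 levels, and these comparisons share the RA_0 libraries. Its lower levels, in AP_1h too, are therefore no evidence of a direction. The carrier of fast fibres, Slc16a3, swung like the glycolytic members, from 120 CPM in AP_34d replicate 2 to 674 CPM in RA_0 replicate 1.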

How the data were processed

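The 10 libraries were grouped by their labels into 5 groups of 2 libraries, each taken as another animal. According to the labels and methods, total RNA was made into TruSeq libraries for Illumina HiSeq sequencing, base calls came from CASAVA 1.8.2, adapters were removed with cutadapt 1.2.1, reads were placed on rn4 with Bowtie2 2.1.0, and HTSeq 0.5.4p3 counted those that fit a single transcript (intersection-nonempty). Use of strand is not given in the sources used here. No member overlaps a transcript of another symbol, but the 2 Aldoa transcripts overlap each other, and GRCr8 names 81 pseudogenes of Gapdh, 30 of Ldha, 9 of Aldoa, 2 of Gys1 and 1 of Ldhb, which may share reads with them. The authors deposited a signal per transcript, CPM scaled with TMM factors of edgeR 3.4.2. The deposited signal was a whole multiple of 1 read within 0.01 reads for 100% of values, so that reads were recovered. Levels are not per length and are not compared between genes.

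Here log2(CPM + 1) was fitted with limma 3.58.1 (R 4.3.3), 1 mean per group over all 10 libraries, eBayes with a trend on mean level (residual degrees of freedom 5, prior 5.14), and Benjamini-Hochberg adjustment over the 10259 transcripts (59.6%) that reached 1 CPM in each library of some group. All 11 member transcripts passed this filter. Differences are on the log2(CPM + 1) scale and understate those of low transcripts. The alternatives were limma-voom, edgeR 4.0.16 and DESeq2 1.42.0 on the recovered reads, pseudocounts of 0.25 and 4, the table unfiltered, a stricter filter (mean of 5 CPM), 5 other scalings, a fit of only the groups compared, eBayes without the trend, a replicate block, transcripts summed per symbol and each library left out. The fit was tested on simulated counts. The ratio was tested with an exact permutation test (Python 3.11.15, scipy 1.17.1), and figures used matplotlib 3.10.9. The members and all gene lists were chosen with earlier results of these data known. Each member is named with all its values, and with a difference where its unadjusted p was under 0.05 or its log2 difference at least 1 in size. The 5 transcripts nearest to Ldhb follow a set rule, whereas the pathway, marker and reference genes named were picked from their lists after their values were seen. A few genes of these lists are not reported here and were left out of their sums and counts.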

Additional observations from a re-analysis of the deposited data

How the results depend on the processing

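Of 208 alternative values for the named differences, 203 stayed on the same side of the threshold and in the same direction, and 5 (all Ldhb) passed it. Members called in AP_1h against RA_0 went from 0 to 1 with DESeq2 and with the compared groups alone, and to 0 to 1 with each library left out (1 without AP_34d replicate 1). For AP_1h against PLA_1h they went from 0 to 1 with DESeq2 and the compared groups alone. In the other 6 contrasts the count was 0 under each of the 26 alternatives. Members meeting the study's rule in AP_1h against RA_0 were 1 and not 2 with no filter and with the muscle structure scaling, where Gys1 was lost, and 1 to 2 with each library left out (1 without RA_0 replicate 1 or AP_1h replicate 1). For AP_34d against RA_0 it was 1 with quantile normalization and 0 to 2 with each library left out (2 without AP_34d replicate 1, 1 without RA_0 replicate 2 or PLA_34d replicate 1). For PLA_1h against RA_0 it was 1 with edgeR, DESeq2, DESeq2 size factors, scaling without the 20 most abundant transcripts and the compared groups alone, and 0 to 1 with each library left out (1 without RA_0 replicate 2, either AP_34d library or PLA_34d replicate 1). For PLA_34d against RA_0 it was 0 to 1 with each library left out (1 without RA_0 replicate 2 or either AP_34d library), and over both times 0 to 1 (0 without AP_34d replicate 2 or PLA_34d replicate 1). For the interaction it was 0 with no filter, without TMM and with the muscle structure scaling, was met by Gpd1 and not Ldhb with quantile normalization, and was 0 to 1 with each library left out (0 without either AP_1h or PLA_1h library, AP_34d replicate 1 or PLA_34d replicate 2). The causes were not tested.

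Each library was taken as another animal, and the labels give no pairing of animals by replicate number. The deviations of same-numbered libraries correlated between -0.46 and 0.45 over 10 pairs of groups. With 2 libraries a group this cannot settle whether equal numbers share a factor. With a replicate block 0 members were called in each contrast, and the study's rule was met by 1 member (Ldhb) in AP_1h, AP_34d, PLA_1h and PLA_34d against RA_0.

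With each library left out, the log2 ratio of Ldhb to Ldha differed by -4.44 to -2.78 for AP_1h against RA_0, -1.13 to -0.54 for AP_34d against RA_0, -1.32 to -0.90 for PLA_1h against RA_0, -1.70 to 0.14 for PLA_34d against RA_0, -3.33 to -1.67 for AP_1h against PLA_1h, -0.98 to 0.87 for AP_34d against PLA_34d and -1.74 to -0.82 over both times, and the permutation p over the 5 groups ran from 0.0169 to 0.184. The lowest and highest AP_1h values were those without its replicate 1 and its replicate 2. With 2 animals a group, the spread between animals limits what can be shown for the members, since the least covered of them outside Aldoa still had 438 reads.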

Other observations

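The levels of 7 genes of oxidative metabolism (Cs, Idh3a, Sdha, Cox4i1, Uqcrc1, Cycs and Mdh2) summed to 4771 to 8589 CPM in RA_0, 2672 to 4276 in AP_1h, 4134 to 7688 in PLA_1h, 3530 to 7009 in AP_34d and 3392 to 7096 in PLA_34d. The 2 AP_1h libraries lay below both RA_0 libraries and overlapped PLA_1h. In AP_1h against RA_0, 7 of 7 were below 0 with a median log2 difference of -0.97 beside 0.00 for all tested. limma called 0 of them (lowest adjusted p 0.542, 3 at an unadjusted p under 0.05, beside 8.89% of all tested), as did limma-voom, edgeR and DESeq2. Uqcrc1, a subunit of respiratory complex III, met the study's rule as lower, where 3.59% of all tested did.

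Among the fast myosin heavy chains, Myh1 stood at 36269 and 25920 CPM in RA_0, 6070 and 10230 in AP_1h, 34886 and 38430 in PLA_1h, 32876 and 25877 in AP_34d, and 21230 and 29350 in PLA_34d, and Myh2 was likewise lowest in both AP_1h libraries (2938 and 5131 CPM). Myh4, the chain of the most glycolytic fibres, stood at 34987 and 65741 CPM in AP_1h, both above the 2 RA_0 libraries (32281 and 23345 CPM). Of the 10259 tested transcripts, 2110 were higher there without overlap. limma called 0 of the 12 fast-fibre transcripts in AP_1h against RA_0 (0 at an unadjusted p under 0.05), none passed in edgeR or limma-voom, and DESeq2 called Myh1 and Myh2 (1.69% of all tested called). In AP_1h against PLA_1h Myh1 met the study's rule as lower (1.65% of all tested). DESeq2 called Myh1 there (adjusted p 7.64e-05, 0.409% of all tested called) and in the interaction of therapy and time (0.0143, 0.312%). limma, limma-voom and edgeR called 0 of the 12 in both. In the interaction 0 of the 12 had an unadjusted p under 0.05 by limma, beside 4.05% of all tested.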
